A study of Rattus norvegicus with 12 samples.

Results

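Neutrophils carry their antimicrobial proteins in granules that are filled in sequence while the cells mature in the bone marrow, and 10 genes for such proteins were followed here in the fracture hematoma of rats. They were S100a8 and S100a9 (cytosol), Mpo and Elane (primary granules), Ltf, Lcn2, Mmp8, Ngp and Camp (secondary granules) and Fcnb (a ficolin). A probe set was assigned through the platform annotation where it carried exactly 1 of these symbols, and the brightest was to be kept for each gene. Of the 10 genes, 6 had a probe set, and each of them had exactly 1 (S100a8, S100a9, Lcn2, Mmp8, Camp and Fcnb). They stood among 14217 genes with a probe set of 1 symbol. No probe set was assigned to Mpo, Elane, Ltf or Ngp, so neither primary granule member was measured and the primary granules are represented below by defensin genes.

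The hematoma was taken on day 3 from the gap of 1.5 mm left by osteotomy of the left femur in female Sprague-Dawley rats with an external fixator. The 4 groups were old rats (52 weeks) with semi-rigid fixation (OSR), old rats with rigid fixation (OR), young rats (12 weeks) with semi-rigid fixation (YSR) and young rats with rigid fixation (YR). The offset between fixator and bone was 15 mm for semi-rigid and 7.5 mm for rigid fixation. Every group had 9 animals, whose RNA was combined into 3 pools of 3, and each pool was hybridized to 1 Affymetrix array, so that n counts pools and p-values measure the spread between pools. No unfractured tissue was among the groups.

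Granule genes are transcribed in turn, primary granule genes (myeloperoxidase, elastase, defensins) in promyelocytes and secondary granule genes in myelocytes and metamyelocytes. In a mature neutrophil these transcripts have largely been lost, whereas S100a8 and S100a9, the subunits of calprotectin, and receptors such as Csf3r are still transcribed. Neutrophils are among the first cells to enter a fracture hematoma, and the gap lies next to opened bone marrow, where granulocytes are made.

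The sequence before the transcription start was printed for the 5 measured members with an entry in the RefSeq promoter table (assembly GRCr8), because their signals moved together across the arrays. S100a8 had no entry. Each line holds the 250 bases before the start, 5' to 3' on the strand of the gene. Capitals mark matches on either strand to TTNNGNAA, a spelling of the site bound by C/EBP factors, which drive granule genes in maturing granulocytes, or to GGAAGT, a spelling of the core bound by ETS factors such as PU.1.
S100a9 (chr2:178490623-178490872, minus strand): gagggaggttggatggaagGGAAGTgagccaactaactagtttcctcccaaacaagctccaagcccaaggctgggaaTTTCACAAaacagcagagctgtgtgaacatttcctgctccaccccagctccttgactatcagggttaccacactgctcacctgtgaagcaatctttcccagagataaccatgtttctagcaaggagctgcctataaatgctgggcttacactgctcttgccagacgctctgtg
Lcn2 (chr3:36081781-36082030, minus strand): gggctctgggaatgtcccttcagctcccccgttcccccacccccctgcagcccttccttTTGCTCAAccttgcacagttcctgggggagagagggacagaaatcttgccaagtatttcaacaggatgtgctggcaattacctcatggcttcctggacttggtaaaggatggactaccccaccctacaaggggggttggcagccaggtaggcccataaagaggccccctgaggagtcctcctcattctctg
Mmp8 (chr8:13008640-13008889, plus strand): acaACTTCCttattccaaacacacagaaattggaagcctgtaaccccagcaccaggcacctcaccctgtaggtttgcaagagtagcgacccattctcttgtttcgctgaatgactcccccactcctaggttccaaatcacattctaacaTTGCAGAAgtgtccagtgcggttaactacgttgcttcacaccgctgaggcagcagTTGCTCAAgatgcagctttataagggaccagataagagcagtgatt
Camp (chr8:118721999-118722248, minus strand): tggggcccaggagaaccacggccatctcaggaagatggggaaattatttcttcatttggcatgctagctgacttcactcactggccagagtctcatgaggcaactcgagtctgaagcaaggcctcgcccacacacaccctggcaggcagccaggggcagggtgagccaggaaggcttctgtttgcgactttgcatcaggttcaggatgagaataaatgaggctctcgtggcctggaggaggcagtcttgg
Fcnb (chr3:31800189-31800438, minus strand): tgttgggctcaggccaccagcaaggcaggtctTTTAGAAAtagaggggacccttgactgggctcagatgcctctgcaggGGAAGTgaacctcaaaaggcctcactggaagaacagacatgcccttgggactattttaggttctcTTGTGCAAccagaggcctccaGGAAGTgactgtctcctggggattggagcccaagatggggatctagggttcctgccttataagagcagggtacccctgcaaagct
TTNNGNAA was found in 4 of these 5 stretches and in 37.2% of the 33469 stretches of the same length in the table. S100a9 had TTTCACAA starting 173 bases before the start, and Lcn2 had TTGCTCAA 191 bases before it. Mmp8 had TTGCAGAA at 101 and TTGCTCAA at 46 bases, and Fcnb had TTTAGAAA at 218 and TTGTGCAA at 106 bases. No match lay in the Camp stretch, which says only that these letters are not in that window. GGAAGT was found in 3 of the 5 (S100a9, Mmp8 and Fcnb) and in 19.2% of all stretches, with no overlap between matches of these 2 spellings. Another 7 spellings were searched on both strands. GAGGAA was found in S100a9 (23.3% of all stretches), TGTGGT in S100a9 (14.5%), AACNGNC in Fcnb (28.4%) and TATAAA in S100a9 and Mmp8 (12.9%). TGAGTCA, read by AP-1 (4.05%), and 2 spellings of the NF-kB site (1.3% and 4.42%) were found in 0 of the 5. The matches are descriptions of letters, and no binding was measured.

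Values are log2 of the signal. Markers of erythroid cells, platelets and macrophages had strong signals over the 12 arrays. The log2 signal was 14.73 to 16.12 for Hbb (beta globin) and 12.70 to 15.01 for Alas2 (erythroid cells). It was 13.70 to 15.02 for Pf4 (platelet factor 4) and 13.02 to 13.98 for Cd68 (macrophages). Of 21 listed genes of mature neutrophils 10 were measured, with Csf3r, the receptor of granulocyte colony-stimulating factor, between 8.83 and 10.35. Skeletal muscle genes varied most, the mean centred log2 signal of 7 genes being lowest in OR array 2 (-4.09), OSR array 1 (-3.36) and OR array 3 (-1.60), against -0.02 to 2.41 in the other 9 arrays. Among the control probe sets, those at the 3' end of Gapdh exceeded those at its 5' end, a sign of RNA degradation, by a log2 ratio of 6.69 in YSR array 1 and 2.95 in OR array 1, against 1.02 to 1.59 in YR and 0.33 to 0.49 in the other 7 arrays.

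All 6 measured members averaged higher in old than in young rats under both fixations, by 1.16 to 1.87 on the log2 scale when averaged over fixation (n = 6 arrays of each age). None passed the adjusted test in limma. The arrays of 1 group often lay far apart, and the same 3 arrays (OR array 3, OSR array 1 and YR array 2) had most of the highest values. In each of the 6 genes the group means stood in the order OR, OSR, YR and YSR, and the ranges of OR and OSR, of OSR and YR, and of YR and YSR overlapped in every one.

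**Figure D1:**
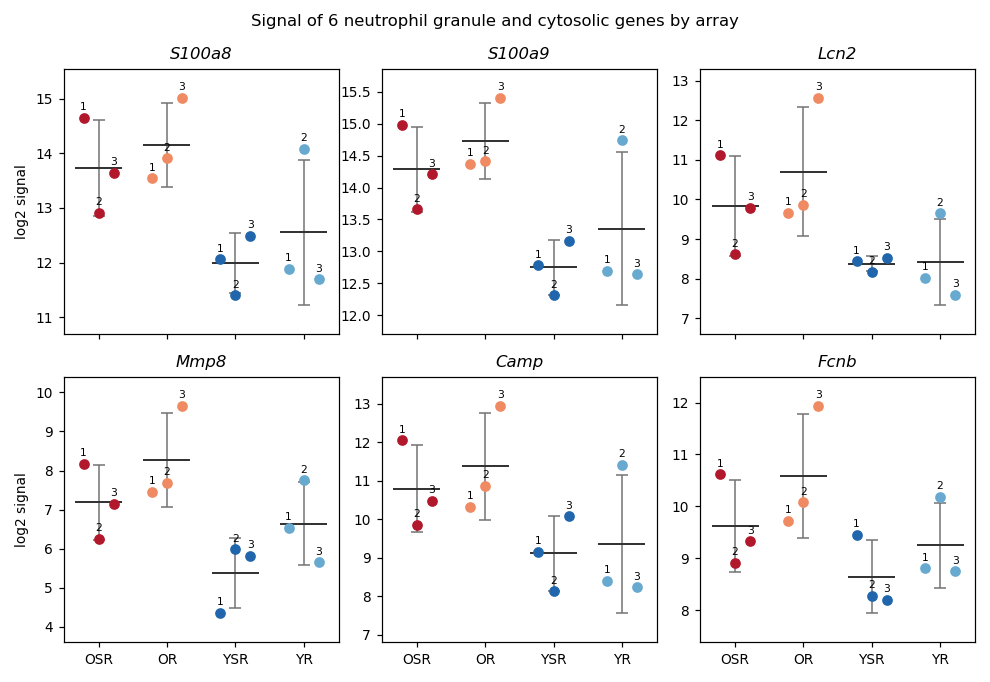
Log2 signal of the 6 measured members (y axis, 1 panel a gene) in OSR, OR, YSR and YR (x axis), with each array as a point labelled by its replicate number, the group mean as a line and 1 SD as a bar (n = 3 arrays). OR array 3 is the highest of the 12 arrays in every panel, and YR array 2 lies above the other 2 YR arrays in every panel.

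S100a8 and S100a9 encode calcium-binding proteins that together form calprotectin, which withholds metal ions from microbes and signals through Tlr4, and monocytes express them too. S100a8 had a log2 signal of 14.65, 12.91 and 13.64 in OSR arrays 1 to 3 and 13.54, 13.91 and 15.02 in OR arrays 1 to 3, against 12.06, 11.40 and 12.49 in YSR and 11.88, 14.08 and 11.69 in YR. S100a9 had 14.98, 13.66 and 14.21 in OSR and 14.37, 14.41 and 15.41 in OR, against 12.78, 12.31 and 13.17 in YSR and 12.69, 14.74 and 12.64 in YR. For both genes all OSR arrays lay above all YSR arrays, and OR and YR overlapped only through YR array 2. Averaged over fixation, old exceeded young rats by 1.68 for S100a8 (standard error 0.43, a fold of 3.20, unadjusted p = 0.00202, adjusted p = 0.257, limma). The difference for S100a9 was 1.45 (standard error 0.36, a fold of 2.73, unadjusted p = 0.00168, adjusted p = 0.241, limma). In bulk tissue, more cells of a type and more RNA per cell cannot be told apart.

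Lcn2 encodes lipocalin 2, which binds bacterial iron carriers and is also made by other cells in inflamed tissue. Its log2 signal was 11.11, 8.61 and 9.78 in OSR and 9.66, 9.87 and 12.57 in OR, against 8.44, 8.17 and 8.53 in YSR and 8.02, 9.65 and 7.59 in YR. Every OSR array lay above every YSR array and every OR array above every YR array, although OR array 1 exceeded YR array 2 by a margin far under the spread within either group. The difference by age was 1.87 (standard error 0.54, a fold of 3.65, unadjusted p = 0.00466, adjusted p = 0.320, limma).

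Camp encodes the cathelicidin precursor, from which an antimicrobial peptide is cut. It had 12.05, 9.86 and 10.48 in OSR and 10.32, 10.86 and 12.95 in OR, against 9.15, 8.12 and 10.07 in YSR and 8.40, 11.41 and 8.23 in YR. The lowest OSR array overlapped the highest YSR array, and YR array 2 exceeded 2 of the 3 OR arrays. The difference by age was 1.86 (standard error 0.63, a fold of 3.63, unadjusted p = 0.0116, adjusted p = 0.398, limma).

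Mmp8, the neutrophil collagenase, cleaves fibrillar collagen. Its probe set was dim, with a mean log2 signal of 6.87 where the median over all probe sets was 7.16. The values were 8.17, 6.25 and 7.15 in OSR and 7.46, 7.69 and 9.66 in OR, against 4.35, 5.98 and 5.82 in YSR and 6.53, 7.75 and 5.65 in YR. OSR and YSR did not overlap, and the lowest of the 12 values came from YSR array 1, the array with the highest Gapdh ratio. The part of RNA quality in it was not tested beyond leaving that array out, and without YSR array 1 and OR array 1 the difference by age kept its direction. It was 1.72 over all arrays (standard error 0.51, a fold of 3.29, unadjusted p = 0.00551, adjusted p = 0.337, limma).

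Fcnb encodes ficolin B, a lectin that recognises sugars on microbes and in mice is made by granulocytes and monocytes. It had the smallest difference by age of the 6, with 10.62, 8.91 and 9.33 in OSR and 9.72, 10.08 and 11.94 in OR, against 9.45, 8.28 and 8.20 in YSR and 8.81, 10.19 and 8.75 in YR. Both pairs of groups overlapped. Old exceeded young rats by 1.16 (standard error 0.43, a fold of 2.23, unadjusted p = 0.0192, adjusted p = 0.467, limma).

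Counted over the 6 genes, 0 passed an adjusted p under 0.05 in limma in any of the 7 comparisons. Over all 31042 probe sets, 2 (0.00644%) passed for old minus young, 1 (0.00322%) for OR minus YR, 1 (0.00322%) for OSR minus YSR and 0 (0%) for YSR minus YR, for OSR minus OR, for semi-rigid minus rigid and for the interaction. At an unadjusted p under 0.05, 6 of 6 were higher for old minus young (4.7% of all probe sets) and 6 of 6 for OR minus YR (4.8%), whereas 3 of 6 were higher for OSR minus YSR (S100a8, S100a9 and Mmp8, with 2.03% of all probe sets). The median difference by age was 1.70 over the 6 genes and -0.01 over the 14217 genes. The 6 genes share cells and arrays, and their differences are not independent of each other.

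Between the old and the young groups of 1 fixation, all 3 arrays lay above the other 3 for 4 of 6 genes in OSR against YSR (4.08% of all probe sets) and for 1 of 6 (Lcn2) in OR against YR (7.75%). Over both fixations 0 of 6 had all old arrays above all young arrays (0.229%). The unpaired test of 2 groups in the study's methods, at its threshold of 0.05 without adjustment together with a fold of more than 2, selected S100a8 and S100a9 for OSR minus YSR (2 of 6, with 1.52% of all probe sets). It selected 0 of 6 for OR minus YR (2.56%), for YSR minus YR (1.68%) and for OSR minus OR (1.5%).

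By fixation, every one of the 6 genes averaged lower under semi-rigid than under rigid fixation at both ages, and 0 of 6 passed the adjusted test. The share of all genes lower at both ages was not counted. YSR minus YR was only -0.04 for Lcn2 (standard error 0.77) and -0.23 for Camp (standard error 0.89). Without YR array 2 it was 0.20 for S100a8, 0.09 for S100a9, 0.57 for Lcn2 and 0.80 for Camp. For Mmp8 it was then -0.71 and for Fcnb -0.13. Averaged over age, Mmp8 differed by -1.17 (standard error 0.51, unadjusted p = 0.0408, adjusted p = 0.845, limma), and it was the only one of 6 with an unadjusted p under 0.05 in this direction (2.53% of all probe sets). The others differed by -0.41 (Camp, standard error 0.63) to -0.78 (Fcnb, standard error 0.43). Without YR array 2 the difference was -0.89 for Mmp8 and lay between -0.55 (Fcnb) and 0.11 (Camp) for the others. The interaction, (OSR minus OR) minus (YSR minus YR), lay between -0.82 (Lcn2, standard error 1.09) and 0.18 (Mmp8, standard error 1.03) with a lowest unadjusted p of 0.462 and a lowest adjusted p of 0.99 in limma. Its standard errors were 0.73 (S100a9) to 1.26 (Camp), beside differences by fixation of -0.41 to -1.17.

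OR array 3 lay above the other 2 OR arrays in each of the 6 genes, for example in Lcn2 with 12.57 against 9.66 and 9.87. YR array 2 stood apart from the other 2 YR arrays in these genes. It exceeded their mean by 1.41 (Fcnb), 1.65 (Mmp8), 1.84 (Lcn2), 2.07 (S100a9), 2.30 (S100a8) and 3.10 (Camp) on the log2 scale, and its rank from the top was 3 of 12 arrays in every member but Lcn2, where it was 6. Over the brighter 15521 probe sets (mean not under the median) the same difference had a median of 0.01, and 1.61% of them exceeded 1 and 0.213% exceeded 2. Other lists were high there as well. The mean centred log2 signal of 6 platelet and megakaryocyte genes was 1.06, against -1.06 and -1.10 in YR arrays 1 and 3. That of 7 mast cell genes was 0.64, against -0.99 and -1.26. All 7 were dim, with mean log2 signals of 4.03 (Tpsab1) to 7.15 (Tpsb2) where the median over all probe sets was 7.16. Mcpt1 went the other way, with YR array 2 at -0.43 relative to the mean of YR arrays 1 and 3. The 8 erythroid genes were at 0.67, against -0.39 and -0.52. The 10 mature neutrophil genes were at 0.54, the highest of the 12 arrays, against -0.28 and 0.07. Csf3r, Cxcr1 and Il1r2 each had rank 1 of 12 in this array. Cxcr2 had rank 2, Fcgr3a, Hdc and Mxd1 rank 3, Alox5ap rank 5, Ncf1 rank 7 and Ncf4 rank 9. Cxcr1 and Cxcr2 were dim, with means of 5.93 and 5.21. The 7 muscle genes were at 0.63, against 1.11 and 0.68, and the Gapdh ratio was 1.59, against 1.02 and 1.38. The part of any of these in the result was not tested.

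YR array 2 was singled out because it lay among the old arrays in these genes, so the values without it are a description, and a larger difference by age follows from that choice. Without it old exceeded young rats by 1.80 for S100a9 (standard error 0.26, adjusted p = 0.0648, limma) and by 2.06 for S100a8 (standard error 0.34, adjusted p = 0.0807, limma). For Camp it was 2.37, for Lcn2 2.18, for Mmp8 1.99 and for Fcnb 1.39, with adjusted p between 0.187 and 0.348 in limma. Still 0 of 6 passed, beside 4 of all probe sets (0.0129%) for old minus young and 2 (0.00644%) for OR minus YR. Over arrays left out in turn, old minus young ranged from 1.45 to 2.06 (S100a8), 1.27 to 1.80 (S100a9) and 1.40 to 2.18 (Lcn2). It ranged from 1.37 to 1.99 for Mmp8, 1.47 to 2.37 for Camp and 0.82 to 1.39 for Fcnb.

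**Figure D2:**
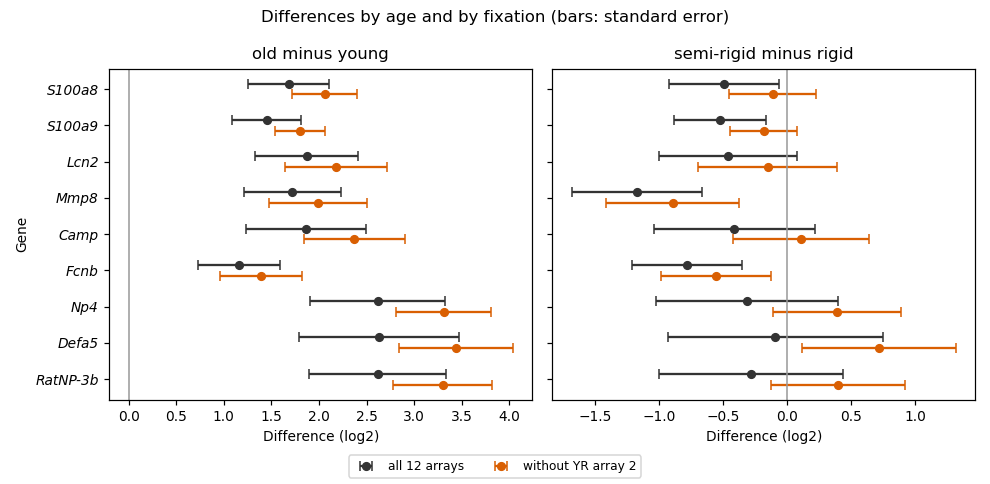
Differences in log2 signal (x axis) of the 6 measured members and of 3 defensin genes (y axis), old minus young on the left and semi-rigid minus rigid on the right, with the standard error from limma as bars. Dark points use all 12 arrays and orange points leave out YR array 2; by age all 9 genes lie above 0 in both, whereas by fixation Camp and the defensins change sign.

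Primary granule genes were represented by 5 of 10 listed genes, among them 3 neutrophil defensins, small peptides that perforate bacterial membranes. RefSeq places Np4, Defa5 (also known as ratNP-1 and ratNP-2) and RatNP-3b on chromosome 16, and they belong to 1 gene family, so their probe sets may share transcripts. Np4 had a log2 signal of 13.36, 10.86 and 12.05 in OSR and 11.24, 12.13 and 13.93 in OR, against 9.19, 9.34 and 9.99 in YSR and 8.66, 12.55 and 8.11 in YR. RatNP-3b had 14.50, 12.36 and 13.23 in OSR and 12.31, 13.82 and 14.65 in OR, against 10.16, 9.90 and 12.02 in YSR and 10.09, 13.73 and 9.25 in YR. Defa5 had 14.22, 11.29 and 12.77 in OSR and 11.50, 12.93 and 14.41 in OR, against 9.68, 9.59 and 11.41 in YSR and 8.74, 13.46 and 8.47 in YR. OSR lay wholly above YSR for Np4 and RatNP-3b, whereas for Defa5 YSR array 3 lay above OSR array 2. YR array 2 lay among the old arrays for all 3 genes.

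The differences by age of the defensins stood above the range of the 6 members, which was not tested. They were 2.62 for Np4 (standard error 0.71, adjusted p = 0.284, limma), 2.62 for RatNP-3b (standard error 0.72, adjusted p = 0.289, limma) and 2.63 for Defa5 (standard error 0.84, adjusted p = 0.371, limma), or folds of 6.15, 6.14 and 6.18 in the same order. YR array 2 exceeded the mean of the other 2 YR arrays by 4.16, 4.06 and 4.85 in Np4, RatNP-3b and Defa5. Without it the differences were 3.31 for Np4 (adjusted p = 0.0648), 3.30 for RatNP-3b (adjusted p = 0.0686) and 3.44 for Defa5 (adjusted p = 0.101), all from limma. Srgn, the proteoglycan core on which granule proteins are packed, differed by 0.63 and Ctsc, the protease that activates granule serine proteases, by -0.07. Of the 5 genes 0 passed the adjusted test. At an unadjusted p under 0.05 for old minus young, 4 were higher (4.7% of all probe sets) and 0 were lower (3.89%).

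**Figure D3:**
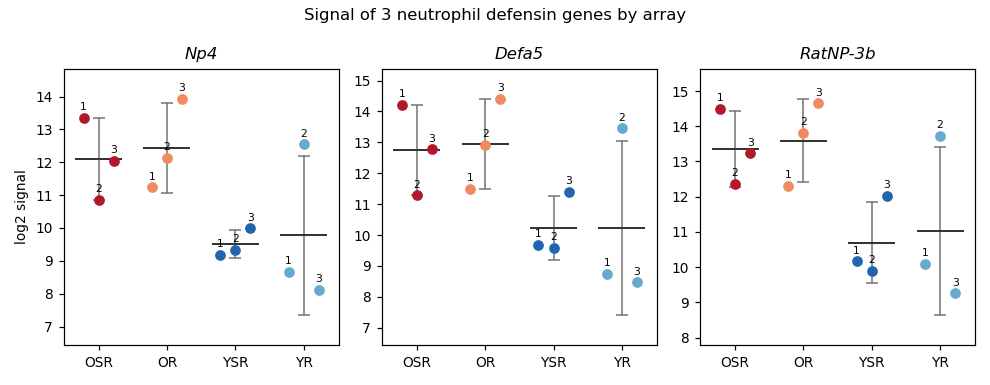
Log2 signal of Np4, Defa5 and RatNP-3b (y axis, 1 panel a gene) in OSR, OR, YSR and YR (x axis), with each array as a point labelled by its replicate number, the group mean as a line and 1 SD as a bar (n = 3 arrays). YR array 2 lies within the range of the old arrays in each panel, while YR arrays 1 and 3 are among the lowest.

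Of 11 measured of 14 listed genes of secondary and gelatinase granules, 0 passed the adjusted test. At an unadjusted p under 0.05 for old minus young, 3 were higher (Mmp9, Pglyrp1 and Hp, with 4.7% of all probe sets). At that threshold 2 were lower (Cybb and Itgb2, with 3.89% of all probe sets). Their median difference was -0.06. Mmp9, the gelatinase of neutrophils that macrophages and osteoclasts make too, differed by 2.31 (standard error 0.37, unadjusted p = 3.7e-05, adjusted p = 0.0954, limma). Its arrays ran in another order than those of the members, with 11.45, 10.34 and 9.73 in OSR and 12.57, 12.40 and 12.15 in OR, against 9.28, 8.71 and 10.15 in YSR and 8.30, 10.13 and 8.23 in YR. OR exceeded YR by 3.49 (standard error 0.52, adjusted p = 0.146, limma), whereas OSR averaged 10.51 and YSR 9.38. The brighter of 2 Mmp9 probe sets is given. The paper reports a significant interaction of age and fixation for Mmp9, on the arrays and by qRT-PCR. Adam8, a membrane protease of leukocytes, averaged 0.60 higher in OSR than in OR (unadjusted p = 0.00181, adjusted p = 0.872, limma).

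Of the genes of mature neutrophils 0 passed the adjusted test. For old minus young at an unadjusted p under 0.05, 0 of 10 measured were higher (4.7% of all probe sets). At that threshold 1 (Ncf4, a subunit of the oxidase) was lower (3.89%). Whatever their p, 4 averaged higher and 6 lower. The median difference was -0.10, beside 1.70 for the members, a gap that was not tested. Cxcr1 and Cxcr2 were dim, with means of 5.93 and 5.21. The cells that gave these signals were not separated in bulk tissue. Ncf4 differed by -0.53 (standard error 0.15, adjusted p = 0.296, limma) and Il1r2, a decoy receptor for interleukin 1, by -0.07 (standard error 0.22). Csf3r had 9.81, 9.57 and 10.03 in OSR and 9.31, 8.83 and 10.01 in OR, against 10.27, 9.38 and 9.50 in YSR and 9.61, 10.35 and 9.24 in YR, with all groups overlapping. Its difference by age was -0.13 (standard error 0.24).

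Among 7 measured of 8 transcription factors of granulopoiesis, 0 passed the adjusted test. At an unadjusted p under 0.05 for old minus young, 2 were higher (Myb and Gfi1, with 4.7% of all probe sets) and 1 lower (Cebpb, with 3.89%). Myb, which keeps progenitors immature, had 8.35, 6.70 and 7.65 in OSR and 7.21, 8.03 and 8.40 in OR, against 3.57, 5.10 and 6.96 in YSR and 5.88, 7.56 and 5.91 in YR. It was dim, with a mean of 6.78, and differed by 1.89 (standard error 0.54, adjusted p = 0.315, limma). Its lowest value came from YSR array 1, the array with the highest Gapdh ratio. Gfi1, a repressor needed for neutrophil maturation, was dim too and differed by 2.51 (standard error 0.88, adjusted p = 0.419, limma). The lowest Gfi1 value (1.07) came from the same array. Both Myb and Gfi1 were picked out after their values had been seen. Cebpa and Cebpb, which bind the spelling searched above, differed by -0.20 and -0.47 by age, and Cebpa averaged 0.49 higher under semi-rigid than under rigid fixation (unadjusted p = 0.00131, adjusted p = 0.818, limma). Cebpe, the factor that secondary granule genes depend on in mice, differed by 0.21 (standard error 0.29).

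The receptors that granule and cytosolic proteins bind were described by 9 measured of 10 listed genes. For old minus young at an unadjusted p under 0.05, 1 was higher (Lrp2, with 4.7% of all probe sets) and 2 lower (Cd14 and Tlr4, with 3.89%). The median was -0.28, and Lrp2 was dim, with a mean log2 signal of 5.48. Cd14, which hands lipopolysaccharide to Tlr4, differed by -0.55 (standard error 0.16, adjusted p = 0.311, limma). Lrp1, a receptor that clears proteases bound to their inhibitors, averaged 0.55 higher under semi-rigid than under rigid fixation (adjusted p = 0.818, limma). Of the 8 inhibitors of granule proteases, all measured, 1 was higher by age at an unadjusted p under 0.05 (4.7% of all probe sets). That was Timp3, an inhibitor of metalloproteinases held in the matrix, with 1.31 (standard error 0.26, adjusted p = 0.145, limma), while Timp1 differed by 0.30 (standard error 0.14). Their median was -0.04.

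Across the 12 arrays the members followed each other closely. Over their 15 pairs Pearson's r was 0.82 to 1.00 and Spearman's rho 0.81 to 0.99, with a largest adjusted p of 0.00164 for r and 0.00257 for rho (permutation tests, two-sided, adjusted over 26 relations, n = 12 arrays). For S100a8 with S100a9 r was 1.00 (permutation p = 1e-05, the smallest that 100000 permutations can give). Without the 2 arrays farthest from the median of the first gene of a pair, r was 0.75 to 0.99, without YR array 2 it was 0.81 to 1.00, and with the group means removed it was 0.64 to 0.99. Arrays of 1 group thus differed from each other in all 6 genes at once, not only by age. The arrays share scaling and tissue composition, which these relations do not separate. The permutations shuffled all 12 arrays without regard to group. All pairs but S100a8 with S100a9 were added after the data had been seen.

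Camp was set against 11 genes of other lists, chosen after the data had been seen. Pglyrp1 and Hp also had ranks 1 and 2 of 9558 genes by r with the mean of Lcn2, Mmp8 and Camp in these arrays. A high r with Camp largely follows from those ranks. Because all 11 genes were chosen after the data had been seen, the p-values of all of them are descriptions. The r of Camp was 0.97 with Defa5, 0.94 with Hp, 0.93 with Pglyrp1 and 0.81 with Myb (rho 0.98, 0.97, 0.94 and 0.93, each with an adjusted permutation p at or under 0.002, n = 12 arrays). With the platelet integrin Itga2b r was 0.85 and rho 0.92 (adjusted permutation p = 0.000581 and 0.000213), and with Alas2, of erythroid cells, r was 0.68 and rho 0.74 (adjusted permutation p = 0.0135 and 0.00956). Camp had an r of 0.33 and rho of 0.36 with Csf3r, 0.19 and 0.16 with Il1r2, and -0.45 and -0.43 with Cd68 of macrophages, with adjusted permutation p of at least 0.158 for each r and at least 0.176 for each rho. For Ckm of muscle r was -0.55 and rho -0.59 (adjusted permutation p = 0.0687 and 0.0549), and for Mki67 of dividing cells 0.59 and 0.63 (adjusted permutation p = 0.0574 and 0.0380). Without the 2 farthest arrays r was 0.99 with Defa5, 0.93 with Itga2b, 0.67 with Alas2 and 0.18 with Csf3r. With group means removed it was 0.96, 0.79, 0.69 and 0.68.

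**Figure D4:**
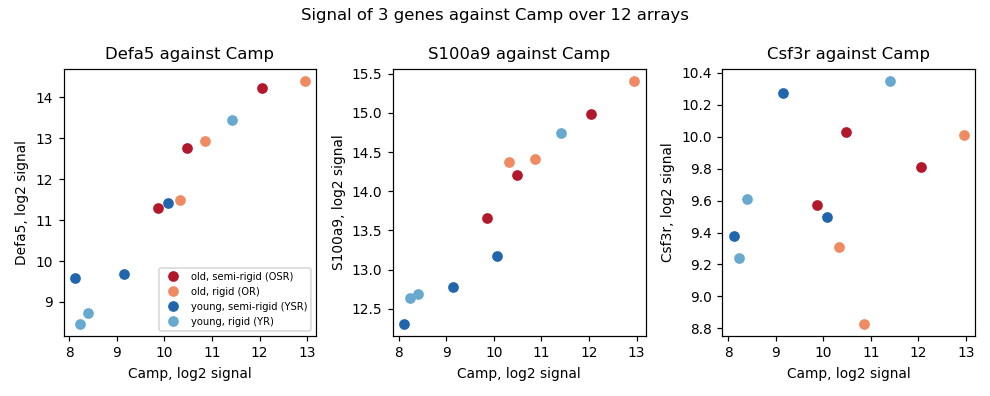
Log2 signal of Defa5, S100a9 and Csf3r (y axes) against that of Camp (x axis) in 12 arrays, coloured by group. Defa5 (r = 0.97) and S100a9 (r = 0.96) follow Camp over the whole range, and Csf3r has an r of 0.33, or 0.68 with group means removed.

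The genes whose pattern was most like the members' were sought among 9558 other genes of 1 symbol whose mean was not under the median, by Pearson's r over the 12 arrays, as a description. Closest to the mean of Lcn2, Mmp8 and Camp were Pglyrp1 (0.966), a peptidoglycan-binding granule protein, Hp (0.965), haptoglobin, Np4 (0.959), Ighl2 (0.958), which RefSeq lists as an immunoglobulin V segment, and Ceacam1 (0.950), an adhesion molecule of granulocytes and epithelia. Closest to the mean of S100a8 and S100a9 were Np4 (0.973), Lypd8l1 (0.968), RatNP-3b (0.964), Ceacam1 (0.962) and Ccdc125 (0.957). Pglyrp1 had 10.11, 7.92 and 8.85 in OSR and 8.70, 8.80 and 11.12 in OR, against 7.99, 7.28 and 7.51 in YSR and 7.74, 9.13 and 7.42 in YR. As in the members other than Lcn2, OR array 3 and OSR array 1 were highest and YR array 2 followed.

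Of the genes listed for other cell types 0 passed the adjusted test for old minus young. At an unadjusted p under 0.05, 4.7% of all probe sets were higher and 3.89% lower. At that threshold 2 of 8 measured erythroid genes were higher (Rhag 2.30 and Klf1 1.60), as were 2 of 6 platelet genes (Ppbp 1.58 and Gp5 1.42). So were 1 of 7 mast cell genes (all dim), 1 of 4 progenitor genes (Gata2 0.82) and 1 of 2 B cell genes (Ebf1 0.62). The lowest values of Rhag (2.96) and Gp5 (4.95) came from YSR array 1, the array with the highest Gapdh ratio. Gp5 was dim, with a mean of 6.95. Of 10 measured genes of monocytes and macrophages 4 were lower and 0 higher at that threshold, with Fcgr1a at -0.58 and Mrc1 at -0.54. Whatever their p, 6 of the 10 averaged lower and 4 (C1qa, C1qb, C1qc and Ccr2) higher, with a median of -0.28. Of 4 eosinophil, 12 proliferation and 7 muscle genes 0 were higher and 0 lower at that threshold. The summed linear signal of the 6 platelet genes was 23284 to 36674 in OSR and 26580 to 35216 in OR, against 14095 to 28112 in YSR and 17722 to 38616 in YR. That of the 7 muscle genes was 1471 to 77825 in OSR and 1093 to 41550 in OR, against 18134 to 40735 in YSR and 28369 to 52031 in YR. For the 8 erythroid genes it was 63158 to 82445 in OSR and 79956 to 108154 in OR, against 50307 to 71819 in YSR and 57313 to 98090 in YR. For the 10 monocyte and macrophage genes it was 32656 to 45255 in OSR and 24459 to 36024 in OR, against 43437 to 58053 in YSR and 38403 to 45188 in YR. The sum of 58053 came from YSR array 1, the array with the highest Gapdh ratio. Adgre1 alone had a signal of 12544.1 there, against 359.8 to 1207.8 in the other arrays. The part of these cell types in the differences of the granule genes was not tested.

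**Figure D5:**
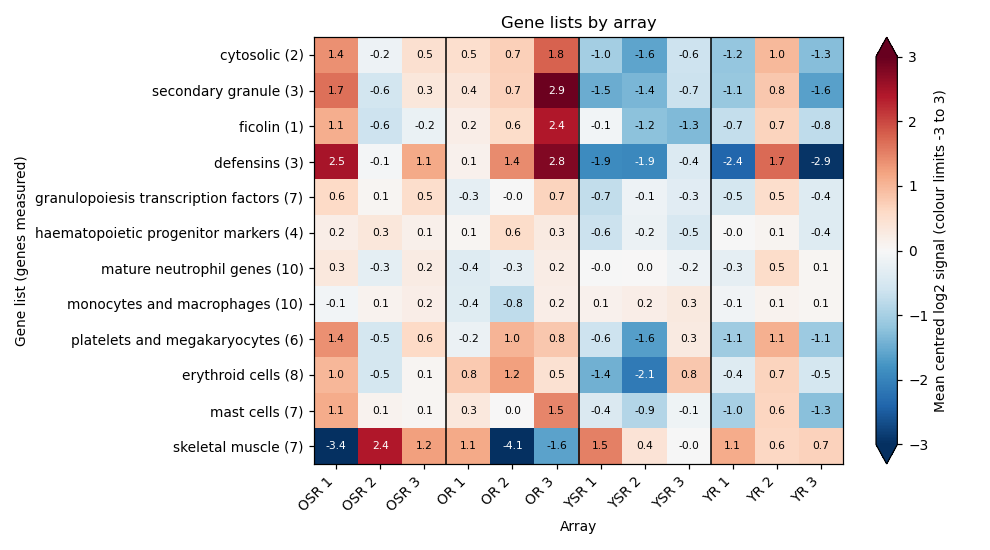
Mean centred log2 signal (colour and printed value, each gene centred over the 12 arrays) of 12 gene lists (y axis, number of genes measured in brackets) in each array (x axis, in the order OSR, OR, YSR and YR). The first 4 lists are high together in OSR array 1, OR array 3 and YR array 2, and mature neutrophil genes, between -0.38 and 0.54 over all arrays, have the highest value of their group in the same 3 arrays (0.31, 0.22 and 0.54). Muscle genes spread from -4.09 to 2.41.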

How the data were processed

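Signal intensity values on a linear scale, deposited by the authors for 31099 probe sets and 12 one-colour arrays, were used. Every array had the same trimmed mean of 500.2. The submitters' processing notes name GCOS 1.2, whereas the paper's methods name PLIER summaries, which were not used here. A floor of 1 was set before log2 was taken, and 57 control probe sets were left out, which left 31042. No filter on low signals was applied. The platform annotation gives a single symbol to 20832 probe sets, several to 436 and none to 9831. Outside the controls 20758 of the single symbols matched the RefSeq gene list by gene identifier.

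The 12 arrays were fitted together with limma 3.58.1 under R 4.3.3 (lmFit, then eBayes with trend; input through version 1.17.8 of data.table), with a mean for each of 4 groups. The 7 comparisons were OSR minus YSR, OR minus YR, OSR minus OR, YSR minus YR, old minus young, semi-rigid minus rigid and the interaction. p-values were adjusted over all probe sets by Benjamini and Hochberg. The fit was tested on simulated data. Correlations, promoter searches and plots used Python 3.11.15 with pandas 2.3.3, numpy 2.4.6, scipy 1.17.1 and matplotlib 3.10.9. The number of arrays limits the precision.

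Named were all members, and up to 2 genes of each list with the smallest unadjusted p and a mean at or above the median. Added to these were 5 genes of like pattern for each of 2 classes of members (secondary granule and cytosolic). Other genes were named after their values had been seen. The members, gene lists and tests were chosen with earlier results of these data known. The alternatives were quantile normalization, a pseudocount of 16, leaving out dim probe sets, no intensity trend, only the arrays of a pair, a block for the replicate number, the methods' test, leaving out the 2 arrays of highest Gapdh ratio, and leaving out each array.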

Additional observations from a re-analysis of the deposited data

How the results depend on the processing

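No measured member passed the adjusted test under any alternative, and all kept their direction by age in 107 of 107 values for old minus young, 119 of 119 for OR minus YR and 119 of 119 for OSR minus YSR. The adjusted p for old minus young in limma ranged from 0.0648 (without YR array 2) to 0.564 for S100a9 and from 0.0807 to 0.579 for S100a8 over 18 alternatives. Differences by fixation turned with single arrays. Over arrays left out in turn, YSR minus YR ranged from -1.0 to 0.20 for S100a8, -0.96 to 0.09 for S100a9, -0.46 to 0.57 for Lcn2 and -0.79 to 0.80 for Camp, OSR minus OR from -0.88 to 0.01 for S100a8, -1.51 to 0.07 for Lcn2 and -1.21 to 0.21 for Camp, and semi-rigid minus rigid from -0.77 to 0.01 for Lcn2 and -0.72 to 0.11 for Camp. YSR minus YR turned without YR array 2 (4 genes) or YSR array 2 (Lcn2 and Camp), and OSR minus OR without OR array 3. The interaction ranged from -0.63 to 0.57 (S100a8), -0.53 to 0.52 (S100a9), -1.46 to 0.11 (Lcn2), -0.37 to 0.87 (Mmp8), -1.38 to 0.44 (Camp) and -0.85 to 0.33 (Fcnb). It was -0.0024 for Mmp8 with a pseudocount of 16, and -0.13, -0.01 and -0.74 for S100a8, S100a9 and Mmp8 without the 2 arrays of highest Gapdh ratio. The cause was not tested.

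Calls over all probe sets moved more. OR minus YR had 0 without the intensity trend, by the methods' test and without the 2 arrays of highest Gapdh ratio, 14 with only the arrays of the pair, and 0 to 4 with an array left out. OSR minus YSR had 0 under quantile normalization, without the trend, with only its arrays, by the methods' test, without the 2 arrays and with the replicate block, and 0 to 1 with an array left out. Old minus young had 4 without the trend, 1 without the 2 arrays and 1 to 80 with an array left out (80 without OSR array 3). Without the 2 arrays YSR minus YR had 27 and semi-rigid minus rigid 3. With an array left out OSR minus OR had 0 to 1 and semi-rigid minus rigid 0 to 1.

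Arrays of equal number were not paired. Their deviations from the group means correlated with a median of 0.019 (18 pairs, -0.412 to 0.405), and those of unequal number with 0.02 (36 pairs). With the replicate block old minus young had 1 call, OSR minus YSR 0 and OR minus YR 1, and S100a9 differed by 1.45 (adjusted p = 0.381, limma). Leaving out dim probe sets removes Mmp8. Each member had 1 probe set, so averaging probe sets changes nothing for the members. Some other genes had several, such as Cebpa (5), Timp3 (4) and Mmp9 (2). Only their brightest probe set was read, and the others were not compared. Of 6 relations listed at the outset only S100a8 with S100a9 had both genes measured, and its r was 1.00 with a pseudocount of 16 and after quantile normalization. The other 25 were added after the data had been seen.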
